A study of Mus musculus with 30 samples.

Results

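Kruppel-like factors (KLFs) are transcription factors, and 9 of them, Klf2, Klf3, Klf4, Klf6, Klf7, Klf9, Klf10, Klf11 and Klf13, are described here in mouse microglia, the resident macrophages of the brain. They were chosen by name, as the rows of a deposited gene count table that carry these symbols: 9 of 54532 genes, of 17 Klf genes and of 576 genes that the table assigns to the C2H2 zinc finger class of transcription factors. The 30 RNA-seq libraries form 10 groups of 3, since microglia from 5 isolation protocols were either treated with HMGB1 for 4 h or left untreated (Control). HMGB1 is a chromatin protein that acts as a danger signal when injured cells release it. A concentration of 1 µg/ml was stated for Protocol 3 only.

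The cells came from C57BL/6 mice with no transgene or deletion. Protocols 1A, 1B and 1C (together Protocol 1) used mixed glial cultures from the brains of 5 pooled pups at postnatal days 0 to 3. Protocol 1A cultures received GM-CSF, a myeloid growth factor, at 0.5 ng/ml for 10 days, Protocol 1B cultures received none for 10 days, and Protocol 1C cultures received 0.5 ng/ml for 21 days. Protocol 2 used 3 pooled adult brains, from mice of 6 to 8 weeks, cultured for 7 days in 100 ng/ml of M-CSF and 100 ng/ml of GM-CSF. Protocol 3 took microglia from adult brains of 6 to 8 weeks with anti-CD11b beads and no culture period (0 days). Per the methods, replicates were isolations from separate litters or separate adult mice. Culture, growth factors, medium and isolation differ together between Protocols 1, 2 and 3, and cannot be told apart in comparisons between them. Age differs as well between Protocol 1 and the other 2, but not between Protocols 2 and 3, which both used mice of 6 to 8 weeks.

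KLFs share a C-terminal set of C2H2 zinc fingers that bind GC-rich and CACCC sequences, and differ in the N-terminal part that recruits cofactors. Klf3 binds the corepressor CtBP and acts mainly as a repressor. Klf2, Klf4, Klf6 and Klf7 act mostly as activators, although Klf2 and Klf4 also restrain NF-kB-dependent genes in myeloid and endothelial cells, whereas Klf9, Klf10, Klf11 and Klf13 recruit the Sin3 corepressor and its histone deacetylases. In macrophages Klf2 is associated with quiescence, Klf4 with alternative activation and Klf6 with inflammatory gene expression. Klf10 and Klf11 were first described as early genes induced by TGF-beta, and Klf9 is induced by glucocorticoids.

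The deposited table places Klf2 (ENSMUSG00000055148) on chromosome 8 from 72319033 to 72321656, Klf3 (ENSMUSG00000029178) on chromosome 5 from 64803388 to 64832901, and Klf6 (ENSMUSG00000000078) on chromosome 13 from 5861482 to 5870394, all on the plus strand. Klf9 (ENSMUSG00000033863) lies on chromosome 19 from 23141226 to 23166911 and Klf11 (ENSMUSG00000020653) on chromosome 12 from 24651274 to 24662789, also on the plus strand. On the minus strand are Klf4 (ENSMUSG00000003032) on chromosome 4 from 55527143 to 55532466, Klf7 (ENSMUSG00000025959) on chromosome 1 from 64029447 to 64122282, Klf10 (ENSMUSG00000037465) on chromosome 15 from 38291463 to 38300706 and Klf13 (ENSMUSG00000052040) on chromosome 7 from 63886351 to 63938915. The build was not given in the sources used here, but 98.3% of the gene identifiers shared with a GRCm38 annotation had the same position. All 9 genes are protein-coding and no pair of them is on the same chromosome. Their counts ranged from 16 (Klf9) to 66898 (Klf6) in a library.

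Promoter sequence from RefSeq (GRCm38.p6) could be matched by symbol to 8 of the 9 genes, with Klf10 named only. The 250 bases before each RefSeq start were searched on both strands for motifs of factors that act on early response and KLF genes, in these 8 and in all 32841 promoters. The MEF2 motif, bound by the MEF2 proteins that drive Klf2 and Klf4 expression downstream of the kinase ERK5, was present in Klf2 only (CTAAATTTAG, 118 to 109 bases before the start) and in 2.92% of all promoters. The AP-1 motif TGANTCA was present in Klf9 only (TGAATCA, 89 to 83 bases before the start) and in 6.75% of all. The NF-kB motif (3.9% of all promoters), the CArG box of serum response factor (1.47%), the CRE TGACGTCA (1.55%) and the KLF site CACACCC (6.93%) had no match in the 8 windows. The GC box GGGCGG, which SP and KLF proteins can bind and which was searched after the other motifs had been read, was present in 7 of 8, all but Klf9, and in 32.7% of all promoters. GC content ran between 59.2% (Klf7) and 78.4% (Klf3). Of the 250 bases, 0 lay before the deposited gene start for Klf7, 117 for Klf3, 153 for Klf11, 221 for Klf2 and 243 for Klf6. The rest of these windows lay inside the deposited gene. A match is a string of letters, not a measured binding site.

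The last 150 bases that precede both the RefSeq start and the deposited gene start are shown for the 6 genes whose window held at least 150 such bases. Klf3 (117 such bases) and Klf7 (0) are left out for this reason. Capitals mark a match of MEF2 in Klf2, AP-1 in Klf9, and the GC box or its reverse complement CCGCCC in the others, where overlapping GC boxes run together.
Klf2, chr8:72318883-72319032, plus strand: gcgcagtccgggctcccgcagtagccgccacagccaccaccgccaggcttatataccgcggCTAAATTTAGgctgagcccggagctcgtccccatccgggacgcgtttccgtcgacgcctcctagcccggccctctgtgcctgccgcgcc
Klf4, chr4:55532476-55532625, minus strand: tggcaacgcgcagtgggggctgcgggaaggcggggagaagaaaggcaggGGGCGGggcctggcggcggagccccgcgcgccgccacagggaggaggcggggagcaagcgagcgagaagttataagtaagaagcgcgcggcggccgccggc
Klf6, chr13:5861332-5861481, plus strand: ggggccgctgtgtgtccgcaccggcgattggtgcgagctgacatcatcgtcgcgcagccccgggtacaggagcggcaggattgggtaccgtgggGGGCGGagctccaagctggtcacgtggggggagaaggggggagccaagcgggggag
Klf9, chr19:23141076-23141225, plus strand: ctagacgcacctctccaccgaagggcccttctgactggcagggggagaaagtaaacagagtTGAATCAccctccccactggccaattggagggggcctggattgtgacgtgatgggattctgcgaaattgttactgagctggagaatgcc
Klf11, chr12:24651124-24651273, plus strand: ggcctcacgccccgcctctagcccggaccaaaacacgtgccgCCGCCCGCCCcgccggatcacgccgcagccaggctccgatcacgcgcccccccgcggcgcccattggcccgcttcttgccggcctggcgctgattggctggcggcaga
Klf13, chr7:63938916-63939065, minus strand: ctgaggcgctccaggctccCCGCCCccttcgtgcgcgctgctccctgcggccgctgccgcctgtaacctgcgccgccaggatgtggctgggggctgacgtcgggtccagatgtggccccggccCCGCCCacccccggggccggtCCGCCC

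Library depth ran between 14151983 and 28564757 counts, levels are given as CPM, the count scaled to library size by TMM, and no pair of libraries was identical. Mitochondrial genes took 0.613% to 1.87% of counts, with the lowest share in Protocol 3 Control. The labelled cell type was checked on 10 microglial markers, whose summed level was 1571 to 2394 CPM in Protocol 1 Control cultures, 2691 to 3122 CPM in Protocol 2 Control cultures and 5558 to 5770 CPM in Protocol 3 Control cells. Of these markers, Tmem119 averaged 1.24, 1.92 and 1.45 CPM in Protocols 1A, 1B and 1C Control, 4.70 CPM in Protocol 2 Control and 60.0 CPM in Protocol 3 Control, and Siglech was at or below 0.587 CPM on average in each of the 4 cultured Control groups against 445 CPM in Protocol 3 Control. Csf1r, the receptor for M-CSF, was abundant throughout (579.6 to 2252 CPM as Control means). In such bulk libraries fewer cells of a type and less RNA per cell cannot be told apart.

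Klf6 was the most abundant of the 9 genes in every group when levels were divided by gene length. In Protocol 3 Control cells it averaged 630 CPM per kb, followed by Klf2 with 88.3, Klf10 with 73.1 and Klf4 with 30.4 CPM per kb, and the other 5 genes lay between 3.85 (Klf7) and 9.69 CPM per kb (Klf11). The order after Klf6 was another in the neonatal cultures. In Protocol 1A Control cultures Klf6 averaged 61.6 CPM per kb and was followed by Klf13 with 17.2, Klf10 with 9.0 and Klf2 with 8.97 CPM per kb. In Protocol 1C HMGB1 cultures Klf6 averaged 224 CPM per kb, Klf3 had moved to second place with 12.1 CPM per kb, and Klf10 and Klf11 were down to 2.05 and 0.709 CPM per kb. Klf6 alone made up 52.6% to 82.5% of the summed per-length level of the 9 genes across the 10 groups.

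**Figure D1:**
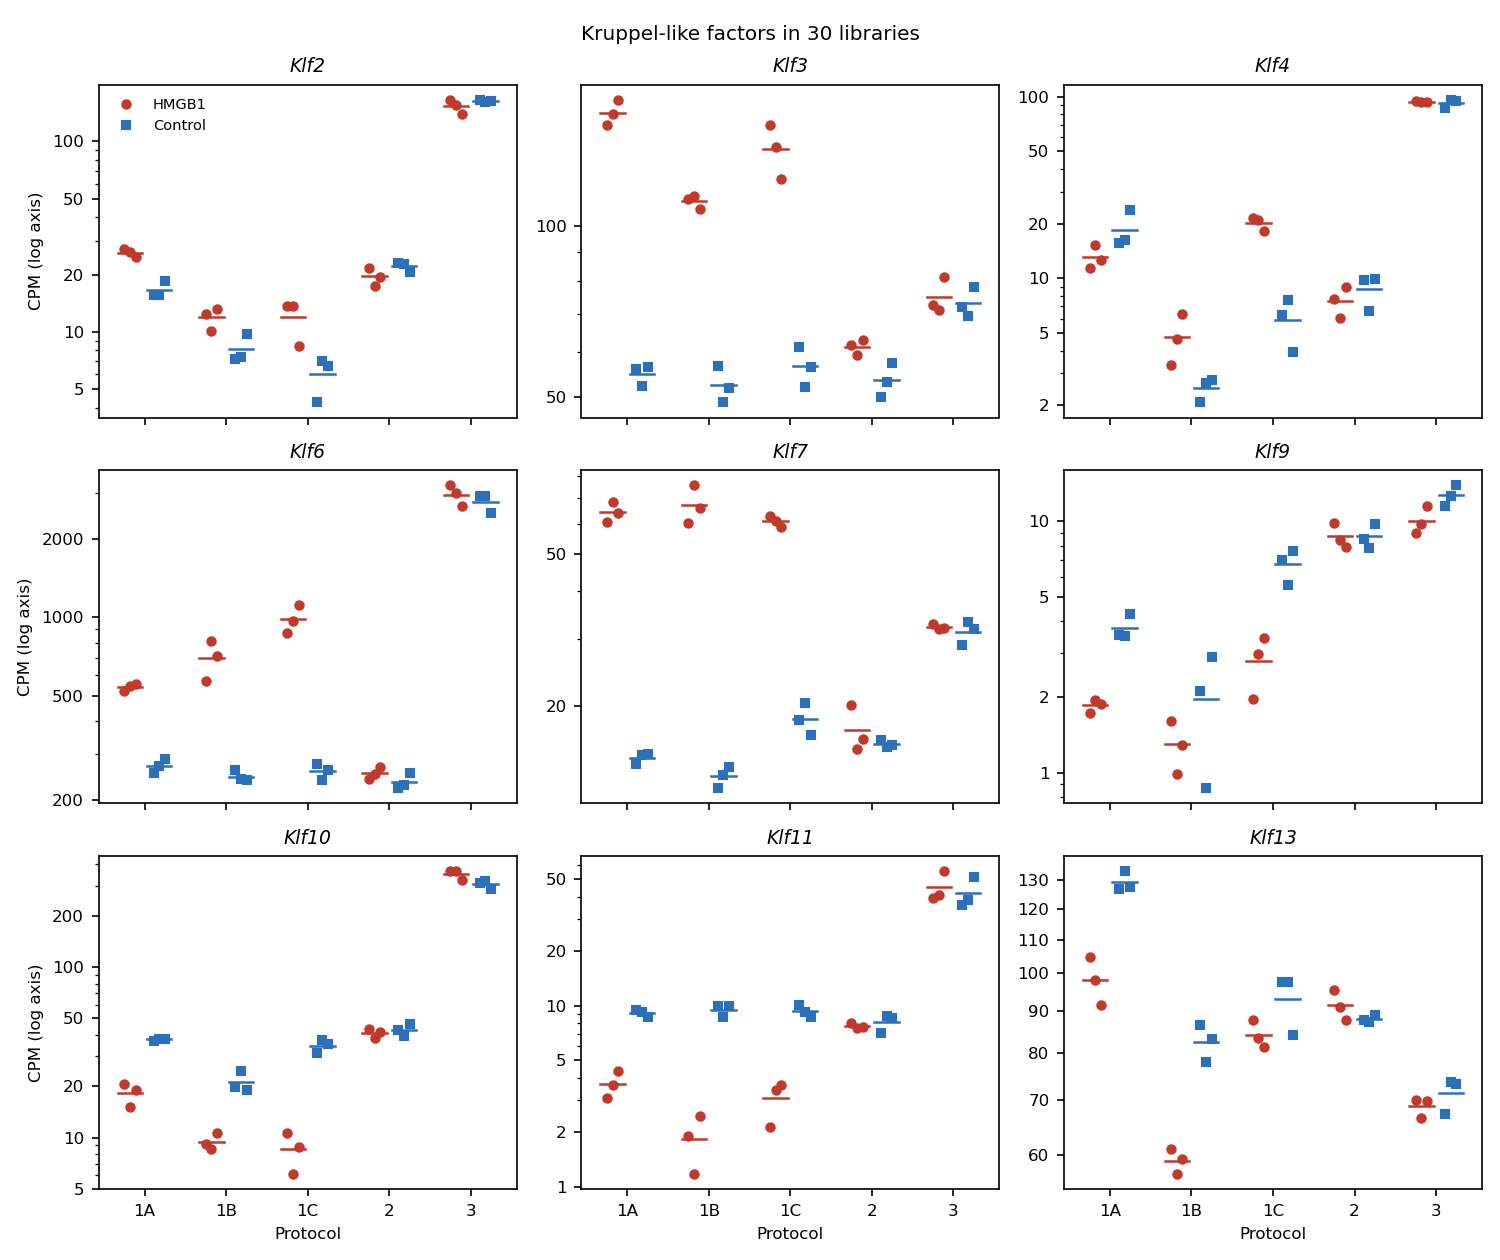
Level of each of the 9 Kruppel-like factors in the 30 libraries, in TMM-scaled CPM on a log axis with its own range per gene, by protocol (HMGB1 red circles, Control blue squares, 3 libraries each, horizontal line at the mean). Klf2, Klf4, Klf6, Klf10 and Klf11 are highest in Protocol 3, for example 2496 to 2899 CPM of Klf6 in Protocol 3 Control against 222 to 253 CPM in Protocol 2 Control, while red and blue separate for most genes in Protocols 1A to 1C and hardly in Protocols 2 and 3.

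The order of the 10 groups differed by gene. For Klf2, Klf4, Klf6, Klf10 and Klf11 the HMGB1 and Control groups of Protocol 3 held the top 2 places, and the remaining 8 groups lay well below them. For Klf6 the next were Protocol 1C HMGB1 and Protocol 1B HMGB1, and its 3 neonatal Control groups and both Protocol 2 groups lay together at 222 to 286 CPM. Klf3 and Klf7 had another order, with the HMGB1 groups of Protocols 1A, 1B and 1C on top. Klf7 averaged 67.3, 64.3 and 60.9 CPM in Protocols 1B, 1A and 1C HMGB1, neighbours whose libraries overlapped, and then 32.3 CPM in Protocol 3 HMGB1. Klf9 was highest in Protocol 3 Control (12.7 CPM) and lowest in Protocol 1B HMGB1 (1.29 CPM). Klf13 was the only member highest in Protocol 1A Control (129 CPM) and its lowest group mean was 59.0 CPM in Protocol 1B HMGB1. Of the 9 neighbouring pairs in each order, libraries overlapped in 4 for Klf2, Klf9 and Klf10, 5 for Klf4, Klf6 and Klf7, 6 for Klf3 and Klf13 and 7 for Klf11. Overlap describes the order and is no test of a difference between neighbours.

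Across the 10 group means of log2 CPM, Pearson's r between members was highest for Klf10 and Klf11 (0.96) and for Klf3 and Klf7 (0.96). It was 0.89 for Klf2 and Klf4, 0.85 for Klf2 and Klf10, 0.84 for Klf4 and Klf6 and 0.82 for Klf9 and Klf10. It was lowest for Klf6 and Klf13 (-0.60) and for Klf3 and Klf11 (-0.51). These values are a description, since the 2 groups of a protocol share its cell source and the 3 neonatal protocols resemble each other.

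The untreated cells were compared to ask how far the isolation protocol itself set KLF levels. Of the 9 genes, 8 were lower and 1 was higher in Protocol 1 Control cultures than in Protocol 3 Control cells, beside 42.9% and 37.3% of all genes tested, and the same 8 were lower and the same 1 was higher in Protocol 2 Control cultures than in Protocol 3 Control cells, beside 37.2% and 40.1%. The 3 Protocol 3 Control libraries enter both comparisons. Adjusted p-values throughout are Benjamini-Hochberg values from edgeR's quasi-likelihood F test over all genes, and a call needs a value below 0.05. Protocol 1 is the mean of 1A, 1B and 1C.

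Klf2, a factor of quiescent lymphocytes, monocytes and endothelium, spanned 4.27 to 18.4 CPM (median 7.35) in the 9 Protocol 1 Control libraries, was at 22.9, 22.7 and 20.7 CPM in Protocol 2 Control and at 165, 161 and 163 CPM in Protocol 3 Control. The 3 sets of libraries did not overlap. The log2 fold change was -4.18 ± 0.09 (SE) for Protocol 1 over Protocol 3 (adjusted p = 2.19e-18) and -2.97 ± 0.13 for Protocol 2 over Protocol 3 (adjusted p = 8.81e-14). Klf4, a factor of monocyte differentiation, spanned 2.07 to 23.7 CPM (median 6.30) in Protocol 1 Control and was at 9.78, 6.59 and 9.97 CPM in Protocol 2 Control against 86.6, 96.5 and 95.2 CPM in Protocol 3 Control. Its libraries in Protocol 3 lay above every cultured Control library. The log2 fold changes were -3.89 ± 0.15 (adjusted p = 4.65e-12) and -3.49 ± 0.22 (adjusted p = 1.47e-09) for Protocols 1 and 2 over Protocol 3. With Protocol 1A alone in place of the mean, Klf2 was at -3.37 and Klf4 at -2.40 relative to Protocol 3 on the log2 scale, both still passing the test.

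Klf6, an immediate early factor, spanned 238 to 286 CPM (median 260.3) in Protocol 1 Control, and had 222, 228 and 253 CPM in Protocol 2 Control against 2898, 2899 and 2496 CPM in Protocol 3 Control. That is a level in cultured cells of 0.0900 (Protocol 1) and 0.0799 (Protocol 2) times the level in Protocol 3, with log2 fold changes of -3.47 ± 0.06 (adjusted p = 1.29e-20) and -3.65 ± 0.09 (adjusted p = 1.02e-17). Klf10 spanned 19.1 to 37.9 CPM (median 35.3) in Protocol 1 Control and had 42.6, 39.3 and 46.6 CPM in Protocol 2 Control against 311, 320.0 and 285 CPM in Protocol 3 Control, with log2 fold changes of -3.39 ± 0.07 (adjusted p = 7.12e-20) and -2.92 ± 0.10 (adjusted p = 4.63e-16). No library of Klf6 or Klf10 overlapped between the cultured Control groups and Protocol 3 Control.

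Klf11, the relative of Klf10, spanned 8.66 to 10.1 CPM (median 9.23) in Protocol 1 Control and had 7.06, 8.81 and 8.51 CPM in Protocol 2 Control against 36.3, 38.3 and 51.7 CPM in Protocol 3 Control (log2 fold changes of -2.23 ± 0.10 and -2.46 ± 0.14, adjusted p = 2.25e-14 and 1.45e-12). Its 12 cultured Control libraries lay close together. Klf9 was at 0.867 to 7.65 CPM (median 3.53) in Protocol 1 Control and at 7.81 to 9.82 CPM in Protocol 2 Control against 11.6 to 13.9 CPM in Protocol 3 Control. Its log2 fold changes were -1.85 ± 0.18 (adjusted p = 1.08e-08) and -0.63 ± 0.22 (adjusted p = 0.0159). The second of these did not pass without Protocol 2 Control replicate 1 (-0.57, adjusted p = 0.0543), without Protocol 2 Control replicate 2 (-0.53, 0.0767) or without Protocol 3 Control replicate 3 (-0.55, 0.0616).

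The remaining genes moved less. Klf7, known for its part in neuronal growth, spanned 12.2 to 20.4 CPM (median 14.9) in Protocol 1 Control and 15.7 to 16.4 CPM in Protocol 2 Control against 28.9 to 33.3 CPM in Protocol 3 Control, and its level in culture was 0.470 and 0.480 times that of Protocol 3 (adjusted p = 4.63e-11 and 5.33e-09). Klf3 was at 49.0 to 61.4 CPM in Protocol 1 Control and 50.1 to 57.5 CPM in Protocol 2 Control against 69.4 to 78.2 CPM in Protocol 3 Control, with log2 fold changes of -0.47 ± 0.06 and -0.53 ± 0.08 (adjusted p = 1.10e-06 and 5.21e-06). Klf13 was the exception in direction. It was at 77.8 to 133 CPM (median 97.6) in Protocol 1 Control and 87.3 to 88.8 CPM in Protocol 2 Control against 67.2 to 73.6 CPM in Protocol 3 Control, with log2 fold changes of 0.43 ± 0.06 (adjusted p = 2.09e-06) and 0.22 ± 0.07 (adjusted p = 0.0115). With DESeq2's size factors the second had an adjusted p of 0.0584.

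**Figure D2:**
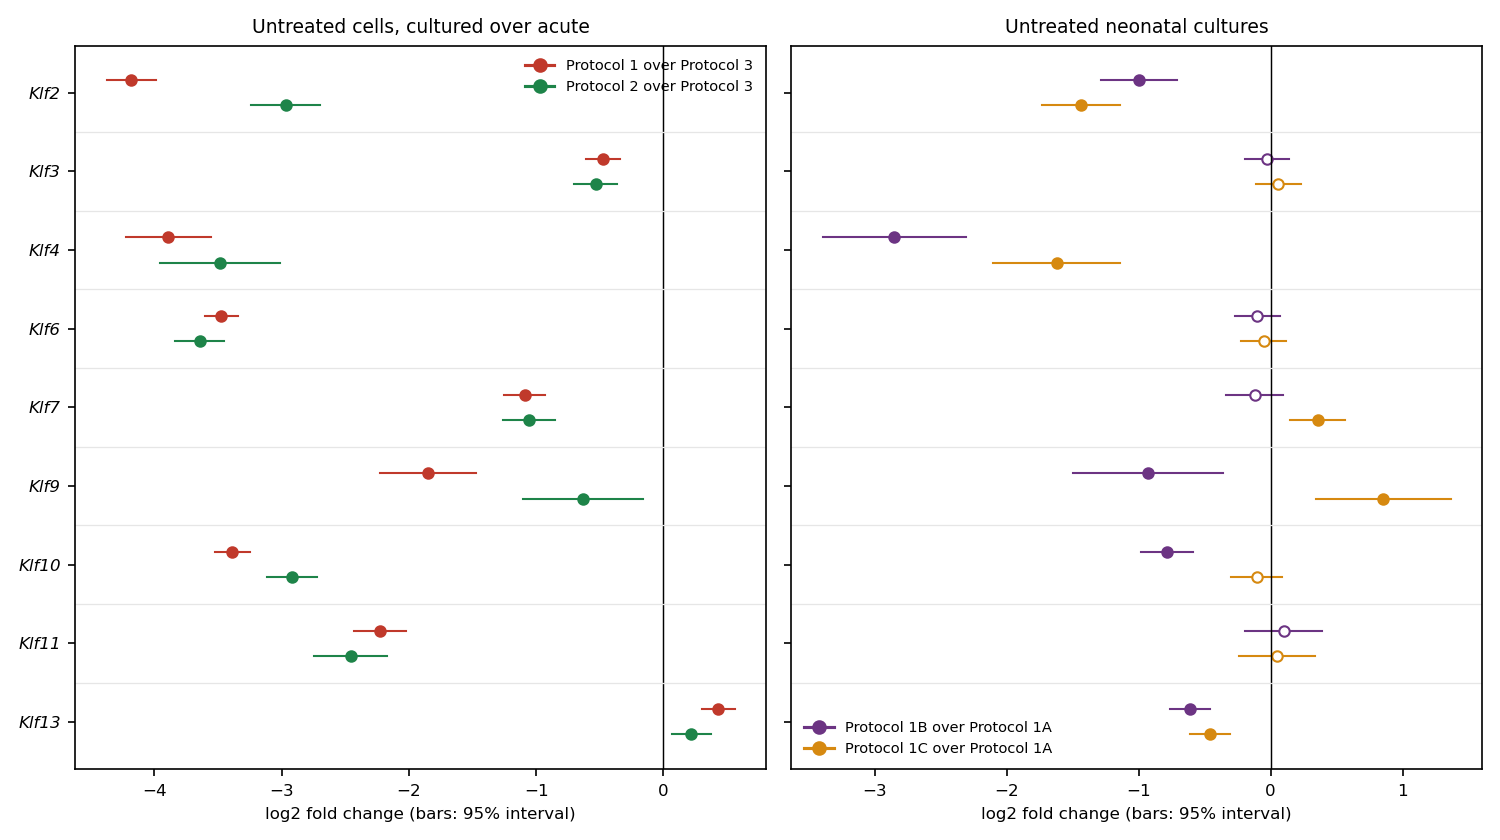
Log2 fold changes of the 9 Kruppel-like factors between untreated cells, with 95% intervals (filled symbols passed the test, open symbols did not). In the left panel 8 genes lie left of 0 and Klf13 right of it, with Klf2 at -4.18 for Protocol 1 over Protocol 3, and in the right panel Klf4 reaches -2.85 for Protocol 1B over Protocol 1A.

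Other genes and cell markers moved with this difference. All 13 immediate early genes of a fixed list were lower in both kinds of cultured Control cells than in Protocol 3 Control cells, among them Jun (162 CPM in Protocol 1 and 2388 CPM in Protocol 3, log2 fold change -3.97) and Atf3 (285 and 3067 CPM, -3.52), components of AP-1 and the stress response. Of a list of glucocorticoid-induced genes and the receptor gene Nr3c1, 10 of 10 were lower in Protocol 1. They included the phosphatase gene Dusp1 (21.9 CPM against 3993 CPM in Protocol 3, -7.63) and the clock gene Per1 (-4.22). Of the TGF-beta early response genes 11 of 12 were lower, including the feedback regulators Skil (-4.30) and Pmepa1 (-4.96). In Protocol 2 Control 8 of 10 and 12 of 12 of these lists were lower. Of 12 endothelial markers 11 were lower in Protocol 1 Control and 9 in Protocol 2 Control than in Protocol 3 Control, and 1 was higher in each. Their sums were 91.7 to 179.9 CPM, 176 to 185 CPM and 175 to 194 CPM in Protocol 1, 2 and 3 Control. Of these, Cldn5 was at 0 in the Protocol 1 Control groups and averaged 14.7 CPM in Protocol 3 Control. Of 8 neutrophil markers 7 were lower and 1 was higher in each, with sums of 2.27 to 60.8 CPM, 22.6 to 25 CPM and 349 to 738 CPM. Of 5 monocyte markers 1 was higher and 2 lower in Protocol 1, and 2 and 2 in Protocol 2. Of 3 T cell markers tested 1 was higher and 2 lower in each, and of 2 B cell markers 1 and 1. Monocyte sums in Protocol 1, 2 and 3 Control were 186 to 618, 182 to 235 and 56.9 to 64.5 CPM. T cell sums were 66.4 to 185, 21.8 to 24.7 and 5.22 to 6.68 CPM, and B cell sums 17.1 to 62.2, 96.9 to 120 and 8.12 to 9.02 CPM. Of 10 microglial markers, 8 and 7 were lower and 1 and 2 were higher. Of all genes tested, 42.9% and 37.2% were lower and 37.3% and 40.1% higher in Protocols 1 and 2 than in Protocol 3. Other markers went the other way in Protocol 2 Control, where 7 of 8 fibroblast and mural markers were higher (196.8 to 309.8 CPM in sum, against 18.9 to 26.1 CPM in Protocol 3 Control), as were 4 of 6 astrocyte markers (57.0 to 70.7 against 16.0 to 17.0 CPM) and 4 of 6 oligodendrocyte markers (173 to 254 against 69.5 to 79.7 CPM). In Protocol 1 Control these lists were mixed, with 4 higher and 2 lower, 1 higher and 2 lower, and 2 higher and 3 lower. The part of these cells and of early gene induction in the KLF differences was not tested.

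Between the cultured Controls, 3 of the 9 genes were lower and 2 were higher in Protocol 1 than in Protocol 2, beside 30.7% and 24.6% of genes tested. Klf2 was lower by a log2 fold change of -1.21 ± 0.10 (adjusted p = 9.94e-09), Klf9 by -1.22 ± 0.18 (1.44e-05) and Klf10 by -0.47 ± 0.07 (1.85e-05), in libraries that did not overlap. Taken from Protocol 1A alone, Klf2 was at -0.40 (adjusted p = 0.0126) and Klf10 at -0.17 (0.123), which did not pass. Klf13 was higher by 0.21 ± 0.06 (0.00496) and Klf6 by 0.17 ± 0.07 (0.0364), with overlapping libraries. The Klf6 call was lost without Protocol 1A Control replicate 2 or 3, Protocol 1B Control replicate 1, or Protocol 2 Control replicate 1 or 2 (0.15 to 0.17, adjusted p = 0.0512 to 0.14). It was also lost with DESeq2 (0.15, 0.0735), with its size factors (0.15, 0.0833) and with no filter (0.16, 0.0702). Klf4 did not pass (-0.40, adjusted p = 0.0796) but did with DESeq2 (-0.43, 0.0395), with no filter (-0.41, 6.84e-04) and without Protocol 1A Control replicate 3, Protocol 1C Control replicate 2 or Protocol 2 Control replicate 2 (-0.47 to -0.57, adjusted p = 0.0203 to 0.0292), and stood on the other side of 0 for Protocol 1A alone (1.09, adjusted p = 6.37e-04). In the same comparison 8 of 8 fibroblast and mural markers, 9 of 12 endothelial, 5 of 6 astrocyte, 5 of 6 oligodendrocyte and 7 of 10 microglial markers were lower and 3 microglial markers higher in Protocol 1, with fibroblast and mural sums of 2.30 to 97.2 CPM against 196.8 to 309.8 CPM in Protocol 2. Their part was not tested.

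The neonatal cultures also differed among themselves. Relative to Protocol 1A Control, 5 of the 9 genes were lower in Protocol 1B Control, grown without GM-CSF, beside 12.6% of genes tested. Klf4 was at 2.07, 2.64 and 2.74 CPM in Protocol 1B Control and 6.30, 7.58 and 3.93 CPM in Protocol 1C Control against 15.7, 16.2 and 23.7 CPM in Protocol 1A Control. The 3 groups did not overlap, and the log2 fold changes were -2.85 ± 0.25 for 1B over 1A (adjusted p = 8.91e-07) and -1.62 ± 0.22 for 1C over 1A (adjusted p = 1.41e-04). Klf2 was at 7.17, 7.35 and 9.81 CPM in 1B Control and 4.27, 7.07 and 6.61 CPM in 1C Control against 15.6, 15.7 and 18.4 CPM in 1A Control (-1.0 ± 0.14 and -1.44 ± 0.14, adjusted p = 1.79e-05 and 9.26e-07). Klf10 (-0.79 ± 0.09, adjusted p = 2.33e-06) and Klf13 (-0.61 ± 0.07, 2.17e-06) were lower in 1B as well.

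In Protocol 1C Control, grown with GM-CSF for the longer time, 3 of the 9 genes were lower and 2 were higher than in Protocol 1A Control, beside 7.91% and 13.1% of genes tested. Klf13 was the third lower gene (-0.46 ± 0.07, adjusted p = 1.27e-04). Klf9 was at 7.04, 5.58 and 7.65 CPM in 1C Control and 2.12, 0.867 and 2.90 CPM in 1B Control against 3.53, 3.51 and 4.28 CPM in 1A Control, higher in 1C (0.85 ± 0.24, adjusted p = 0.0160) and lower in 1B (-0.93 ± 0.27, 0.0135). Klf7 was higher in 1C (0.36 ± 0.10, 0.0145). These smaller calls were lost when single libraries were left out: Klf7 without 1A Control replicate 1 (0.33, adjusted p = 0.0636) or 1C Control replicate 2 (0.28, 0.0869), Klf9 in 1C without 1A Control replicate 1 or 2 or 1C Control replicate 3 (0.76 to 0.81, 0.0633 to 0.0676), and Klf9 in 1B without 1A Control replicate 3 (-0.84, 0.0526) or 1B Control replicate 2 (-0.55, 0.0724). Without 1A Control replicate 1 the number of genes called in 1C was 3. Fibroblast and mural cell markers summed to 27.4 to 90.4 CPM in 1B Control and 47.4 to 97.2 CPM in 1C Control against 2.30 to 3.77 CPM in 1A Control, with 5 of 8 higher in each and 1 marker at 0 in 1B and 1C and 2 in 1A. Of 6 astrocyte markers 5 were higher in 1B and 4 in 1C, with 1 lower in each and sums of 21.2 to 46.4 and 30.8 to 34.8 CPM against 28.0 to 39.0 CPM in 1A. Of 5 monocyte markers 4 were lower in 1B, with sums of 186 to 289 CPM against 414 to 478 CPM in 1A, and in 1C, with 504 to 618 CPM, 2 were higher and 2 lower. The part of such cells was not tested.

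The response to HMGB1 was taken within each protocol, HMGB1 over Control. In the neonatal cultures it reached nearly every member. In Protocol 1A 4 of the 9 genes rose and 5 fell, beside 29.7% and 31.6% of genes tested. In Protocol 1B 5 rose and 3 fell, beside 29.8% and 32%, and in Protocol 1C 5 rose and 3 fell, beside 28.4% and 31.8%. Klf2, Klf3, Klf6 and Klf7 rose in each of the 3 protocols, Klf10 and Klf11 fell in each, Klf9 and Klf13 fell in 2 of 3, and Klf4 fell in 1A and rose in 1B and 1C. In every one of these calls the 3 HMGB1 libraries and the 3 Control libraries did not overlap. How often this held over all genes was not counted, so that it is no trait of the members. The median log2 fold change of the 9 genes was -0.42, 0.57 and 0.99 in Protocols 1A, 1B and 1C, beside -0.04, -0.02 and -0.04 over all genes.

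Klf3, the CtBP-binding repressor, had 149.8, 157 and 166 CPM in Protocol 1A HMGB1 cultures, against 56.1, 52.3 and 56.5 CPM in their Controls. In Protocol 1B it had 111, 113 and 107 CPM with HMGB1, against 56.9, 49.0 and 52.0 CPM in Control, and in Protocol 1C 150.3, 137 and 121 CPM with HMGB1, against 61.4, 52.2 and 56.5 CPM in Control. The Control level was nearly the same in the 3 protocols and every HMGB1 library lay far above it. Klf3 rose 2.82-fold (log2 fold change 1.49 ± 0.07, adjusted p = 2.18e-10), 2.11-fold (1.07 ± 0.07, 2.01e-07) and 2.41-fold (1.27 ± 0.10, 7.88e-07). A neighbouring annotated gene on the same strand, C230096K16Rik, overlaps Klf3 and its count was at most 8.38% of that of Klf3 in any library.

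Klf7 rose most of the 9 genes in Protocols 1A and 1B. It had 60.7, 68.2 and 63.9 CPM in Protocol 1A HMGB1 cultures, against 14.1, 14.9 and 15 CPM in Control, and 60.4, 75.6 and 65.9 CPM in Protocol 1B HMGB1 cultures, against 12.2, 13.3 and 13.9 CPM in Control. In Protocol 1C it had 62.7, 61.0 and 59.0 CPM with HMGB1, against 18.4, 20.4 and 16.8 CPM in Control. The HMGB1 level was close to the same in all 3 protocols, while the Control level was highest in 1C. The rise was 4.31-fold in 1A (2.11 ± 0.08, adjusted p = 3.49e-11), 5.15-fold in 1B (2.37 ± 0.10, 1.00e-08) and 3.30-fold in 1C (1.72 ± 0.10, 5.03e-08), and 4.48%, 5.21% and 9.56% of all genes tested had a higher log2 fold change. Without strand information the antisense gene Gm13748, at most 4.67% of the Klf7 count, cannot be told apart from Klf7 where they overlap.

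Klf6 had 522, 548 and 557 CPM in Protocol 1A HMGB1 cultures, against 255, 270.4 and 286 CPM in Control. It had 571, 811 and 710.2 CPM in Protocol 1B HMGB1 cultures, against 260.3, 240.1 and 238 CPM in Control, and 873, 965 and 1112 CPM in Protocol 1C HMGB1 cultures, against 275, 239 and 261 CPM in Control. From Control levels that overlapped, the HMGB1 levels were lowest in 1A and highest in 1C with no overlap between the 3 protocols. The rise was 1.97-fold (0.98 ± 0.07, adjusted p = 1.62e-08), 2.85-fold (1.51 ± 0.12, 4.62e-06) and 3.83-fold (1.94 ± 0.12, 5.50e-08) in 1A, 1B and 1C. None of the 9 HMGB1 libraries reached the level of an untreated Protocol 3 library.

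Klf2 had 27.3, 26.3 and 24.6 CPM in Protocol 1A HMGB1 cultures, against 15.6, 15.7 and 18.4 CPM in Control, and 12.4, 10.1 and 13.2 CPM in Protocol 1B HMGB1 cultures, against 7.17, 7.35 and 9.81 CPM in Control. In Protocol 1C it had 13.7, 13.7 and 8.42 CPM with HMGB1, against 4.27, 7.07 and 6.61 CPM in Control. The gap between the groups was narrow in 1B and 1C. The rise was 1.55-fold (0.63 ± 0.10, adjusted p = 7.54e-05), 1.48-fold (0.57 ± 0.16, 0.0102) and 1.99-fold (0.99 ± 0.23, 0.00335).

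Klf4 was the gene whose direction depended on the culture. In Protocol 1A it had 11.4, 15.2 and 12.7 CPM with HMGB1, against 15.7, 16.2 and 23.7 CPM in Control. In Protocol 1B it had 3.35, 4.64 and 6.33 CPM with HMGB1, against 2.07, 2.64 and 2.74 CPM in Control, and in Protocol 1C 21.6, 20.9 and 18.3 CPM with HMGB1, against 6.30, 7.58 and 3.93 CPM in Control. The HMGB1 libraries lay below the Controls in 1A, just above them in 1B and far above them in 1C. Klf4 fell in 1A (-0.52 ± 0.16, adjusted p = 0.0178), rose 1.94-fold in 1B (0.96 ± 0.27, 0.00931) and rose 3.43-fold in 1C (1.78 ± 0.21, 2.10e-05). The call in 1A was lost without Control replicate 3 (-0.31, adjusted p = 0.0714), without HMGB1 replicate 1 (-0.42, 0.0816) or without HMGB1 replicate 3 (-0.50, 0.0673), and the call in 1B without HMGB1 replicate 3 (0.70, 0.0597).

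Among the Sin3-binding repressors, Klf11 and Klf10 fell most. Klf11 had 3.09, 3.65 and 4.35 CPM in Protocol 1A HMGB1 cultures, against 9.45, 9.19 and 8.66 CPM in Control, and 1.90, 1.17 and 2.46 CPM in Protocol 1B HMGB1 cultures, against 10, 8.67 and 9.91 CPM in Control. In Protocol 1C it had 2.14, 3.44 and 3.65 CPM with HMGB1, against 10.1, 9.23 and 8.68 CPM in Control. From an even Control level it fell to 0.397, 0.199 and 0.329 times that level, lowest in 1B (log2 fold changes -1.33 ± 0.17, -2.33 ± 0.23 and -1.60 ± 0.22, adjusted p = 1.24e-05, 7.55e-06 and 5.61e-05). Of all genes tested, 91.1%, 97.5% and 92.5% had a higher log2 fold change.

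Klf10 had 20.7, 15 and 19.0 CPM in Protocol 1A HMGB1 cultures, against 37.0, 37.9 and 37.9 CPM in Control. It had 9.19, 8.59 and 10.7 CPM in Protocol 1B HMGB1 cultures, against 19.8, 24.7 and 19.1 CPM in Control, and 10.7, 6.12 and 8.84 CPM in Protocol 1C HMGB1 cultures, against 31.4, 37.2 and 35.3 CPM in Control. The fall was deepest in 1C, to 0.250 times the Control level (-2.00 ± 0.18, adjusted p = 1.90e-06), against 0.475 in 1A (-1.07 ± 0.11, 1.20e-06) and 0.450 in 1B (-1.15 ± 0.14, 3.14e-05). Klf10 and Klf11 fell in the cultures where Klf6, Klf3 and Klf7 rose.

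Klf9 had 1.74, 1.95 and 1.88 CPM in Protocol 1A HMGB1 cultures, against 3.53, 3.51 and 4.28 CPM in Control, and 1.96, 2.97 and 3.44 CPM in Protocol 1C HMGB1 cultures, against 7.04, 5.58 and 7.65 CPM in Control. It fell in both (-1.05 ± 0.24 and -1.27 ± 0.24, adjusted p = 0.00155 and 7.58e-04). In Protocol 1B it had 1.60, 0.989 and 1.29 CPM with HMGB1, against 2.12, 0.867 and 2.90 CPM in Control, groups that overlapped (-0.58 ± 0.44, adjusted p = 0.280). Klf13, a lymphocyte regulator of the same subgroup, had 105, 98.3 and 91.4 CPM in Protocol 1A HMGB1 cultures, against 127, 133 and 128 CPM in Control, and 60.9, 56.8 and 59.3 CPM in Protocol 1B HMGB1 cultures, against 86.5, 77.8 and 83.1 CPM in Control. These falls were small beside those of Klf10 and Klf11 but exceeded the spread of the libraries (-0.42 ± 0.07 and -0.48 ± 0.06, adjusted p = 9.15e-05 and 6.85e-05). In Protocol 1C Klf13 had 87.6, 83.5 and 81.4 CPM with HMGB1, against 97.6, 97.6 and 84.1 CPM in Control, which overlapped (-0.14 ± 0.09, adjusted p = 0.208).

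**Figure D3:**
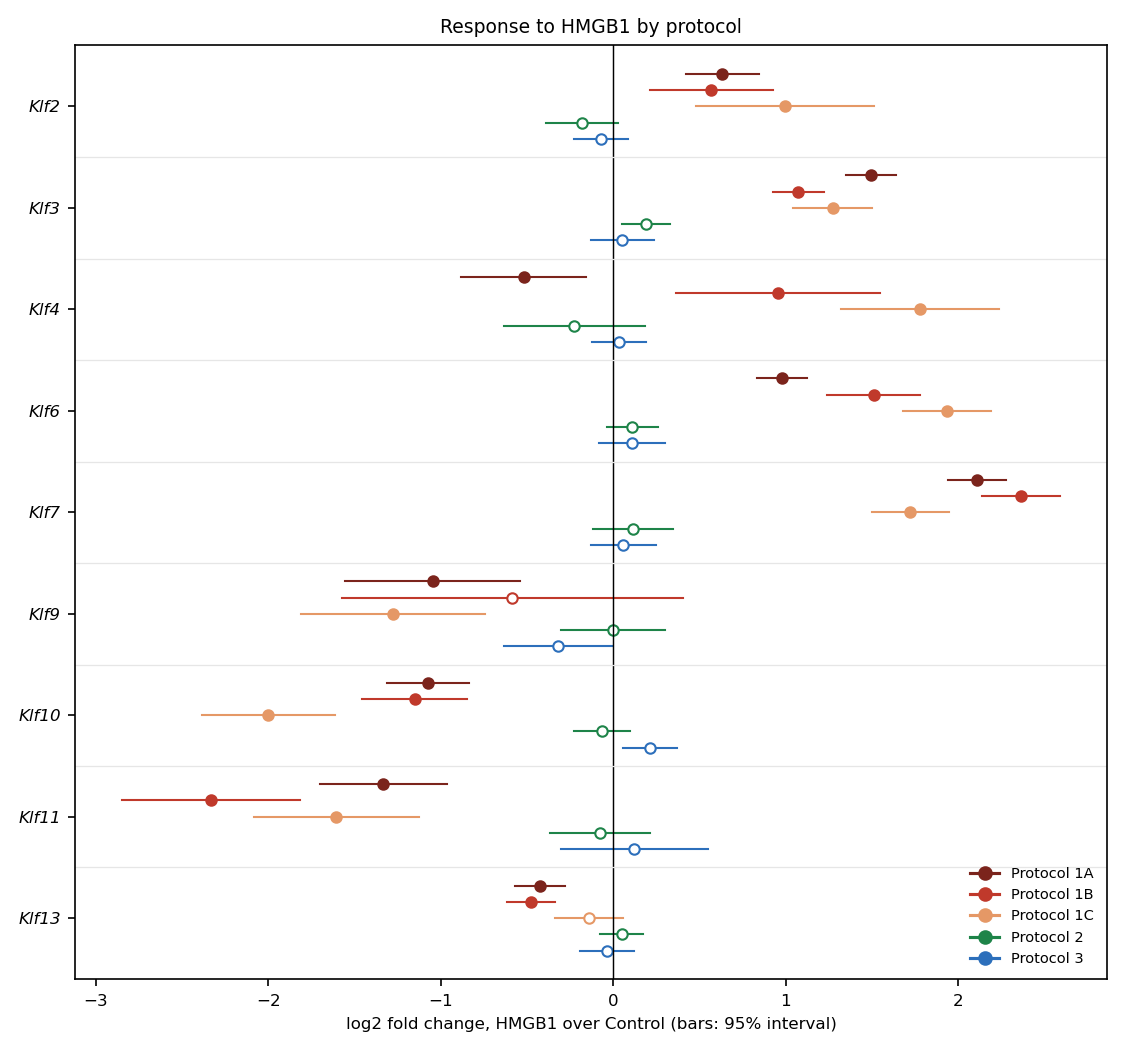
Log2 fold change of HMGB1 over Control for each of the 9 Kruppel-like factors in the 5 protocols, with 95% intervals (filled symbols passed the test, open symbols did not). Klf3, Klf6 and Klf7 lie between 0.98 and 2.37 in Protocols 1A to 1C, Klf10 and Klf11 between -1.07 and -2.33, Klf4 on either side of 0, and all open symbols of Protocols 2 and 3 lie close to 0.

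Markers of other cells also moved with HMGB1 in the neonatal cultures. The 5 monocyte markers summed to 744 to 816 CPM in Protocol 1A HMGB1 cultures against 414 to 478 CPM in Control, to 381 to 437 against 186 to 289 CPM in 1B, and to 923 to 1065 against 504 to 618 CPM in 1C, with 3 of the 4 tested higher and 1 lower in 1A and in 1C, and 2 of 2 higher in 1B. The 12 endothelial markers summed to 258 to 340.0 CPM in 1C HMGB1 cultures against 109.5 to 134 CPM in Control, most of it in 1C HMGB1 from Flt1 (210.3 against 42.8 CPM), with Cldn5, Tie1, Erg and Emcn at 0. Of those tested, 3 of 5 were higher and 1 lower in 1A, 2 of 6 and 1 in 1B, and 3 of 6 and 0 in 1C. The 7 T cell markers summed to 15.1 to 17.0 CPM in 1A HMGB1 cultures against 77.7 to 82.3 CPM in Control. In 1B the sums were 28.6 to 39.0 against 164 to 185 CPM, and in 1C 15.7 to 20.8 against 66.4 to 99.7 CPM. Of 2 tested in each protocol, 1 was higher and 1 lower, and Cd3e was at 0 in all of these groups. The 6 astrocyte markers summed to 48.4 to 56.1 CPM in 1A HMGB1 cultures against 28.0 to 39.0 CPM in Control (3 of 3 tested higher), to 42.1 to 82.5 against 21.2 to 46.4 CPM in 1B (1 of 6 higher) and to 43.3 to 56.1 against 30.8 to 34.8 CPM in 1C (3 of 6 higher). The 10 microglial markers summed to 1861 to 2009 CPM in 1A HMGB1 cultures against 1571 to 1889 CPM in Control (1 higher and 2 lower), to 2049 to 2309 against 2005 to 2394 CPM in 1B (4 and 4) and to 1764 to 2073 against 1896 to 2342 CPM in 1C (2 and 3). The part of other cells in the KLF changes was not tested.

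In the adult cells no member passed the test in the fit without pairing. With the replicate number as a block, since same-numbered libraries deviated together in both protocols, 1 passed in each (Klf3 in Protocol 2, 0.19, and Klf10 in Protocol 3, 0.21), beside 7.94% of genes tested in Protocol 2 and 2.17% in Protocol 3 with the block. In Protocol 2 without the block, 0 of 9 genes were called, beside 1.49% of genes tested, with 1 at an unadjusted p below 0.05 and 0 by DESeq2. In Protocol 3 without the block, 0 of 9 were called, beside 0.123% of genes tested, with 2 at an unadjusted p below 0.05 and 0 by DESeq2. For Klf6 in Protocol 2, with 241.2, 252 and 269 CPM in HMGB1 cultures against 222, 228 and 253 CPM in Control, the log2 fold change was 0.11 with a 95% interval of -0.04 to 0.26. With the block, each HMGB1 library being higher than the Control of its number, the interval was 0.03 to 0.19 and the adjusted p was 0.0690. For Klf7, with 20.1, 15.5 and 16.5 CPM against 16.4, 15.7 and 15.8 CPM, the interval was -0.12 to 0.35, and for Klf11, with 8.01, 7.58 and 7.66 CPM against 7.06, 8.81 and 8.51 CPM, it was -0.37 to 0.22. The Protocol 1 log2 responses of these 3 genes lay outside these intervals. The intervals of Klf2 (-0.39 to 0.03), Klf4 (-0.63 to 0.18), Klf9 (-0.30 to 0.30), Klf10 (-0.23 to 0.10) and Klf13 (-0.07 to 0.17) also included 0 in the fit without the block, while that of Klf2 with the block was -0.35 to -0.02 (adjusted p = 0.187).

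Klf3 was the member of Protocol 2 at the unadjusted threshold. It had 61.7, 59.4 and 63.1 CPM in HMGB1 cultures against 50.1, 53.3 and 57.5 CPM in Control. The groups did not overlap, and the log2 fold change was 0.19 with an interval of 0.05 to 0.33 and an adjusted p of 0.289. With the replicate number as a block the value was 0.19 ± 0.06 (interval 0.08 to 0.30) and the adjusted p was 0.0199, so that Klf3 passed and was higher.

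In Protocol 3, Klf10 had 364, 363 and 323 CPM in HMGB1 cells against 311, 320.0 and 285 CPM in Control, and Klf9 had 8.98, 9.74 and 11.6 CPM in HMGB1 cells against 11.6, 12.6 and 13.9 CPM in Control. Neither pair of groups overlapped. Klf10 was at 0.21 (0.06 to 0.37, adjusted p = 0.736) and passed with the replicate block (0.21 ± 0.04, interval 0.12 to 0.30, adjusted p = 0.00154), and Klf9 was at -0.32 ± 0.15 (adjusted p = 0.947), with 0.228 under the block. Klf6 had 3195, 2979 and 2661 CPM in HMGB1 cells against 2898, 2899 and 2496 CPM in Control, groups that overlapped although each HMGB1 library was above the Control of its number (0.11, -0.08 to 0.30 without the block, and 0.03 to 0.18, adjusted p = 0.163, with it). Klf2 had 165, 155 and 139 CPM against 165, 161 and 163 CPM (-0.07, -0.23 to 0.08), and Klf4 had 94.7, 93.8 and 93.2 CPM against 86.6, 96.5 and 95.2 CPM (0.03, -0.12 to 0.19). Klf4 thus stayed within a narrow range in all 6 libraries of Protocol 3. The intervals were -0.13 to 0.24 for Klf3, -0.13 to 0.25 for Klf7, -0.31 to 0.55 for Klf11 and -0.19 to 0.12 for Klf13. Klf11 had 39.6, 41.0 and 55.4 CPM in HMGB1 cells against 36.3, 38.3 and 51.7 CPM in Control, higher in each pair of the same number, and with the block its interval was -0.01 to 0.27 (adjusted p = 0.483).

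The difference in response between protocols was then tested itself, as an interaction over all 30 libraries. For Protocol 2 minus Protocol 1, 5 of the 9 genes had a lower and 4 a higher log2 response, beside 20.6% and 22.9% of genes tested. For Protocol 3 minus Protocol 1, 5 were lower and 3 higher, beside 22.5% and 20.2%. The differences were widest for Klf7 (-1.95 ± 0.11 and -2.03 ± 0.11, adjusted p = 1.30e-15 and 2.40e-16), Klf11 (1.68 ± 0.21 and 1.86 ± 0.19, 3.66e-08 and 1.35e-09), Klf10 (1.34 ± 0.14 and 1.60 ± 0.14, 4.89e-09 and 8.53e-11) and Klf6 (-1.36 ± 0.12 and -1.39 ± 0.12, 2.17e-11 and 1.18e-11). Both comparisons share the Protocol 1 libraries. The exception was Klf9 for Protocol 3 minus Protocol 1 (0.63 ± 0.27, adjusted p = 0.0567). It passed with the replicate block (0.63 ± 0.22, 0.0179), with DESeq2 (0.65, 0.0445), with its size factors (0.65, 0.0490) and with no filter (0.63, 0.0419). It also passed without 1B Control replicate 2, 1B HMGB1 replicate 1, 1C Control replicate 2 or 1C HMGB1 replicate 3 (0.67 to 0.75, 0.00573 to 0.0441).

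For Klf4, whose mean over Protocol 1 joins a fall and 2 rises, the differences of -0.97 ± 0.25 (Protocol 2 minus Protocol 1, adjusted p = 0.00216) and -0.74 ± 0.22 (Protocol 3 minus Protocol 1, 0.00902) turned to 0.28 (adjusted p = 0.521) and 0.51 (0.155) with Protocol 1A alone. Between the adult protocols (Protocol 3 minus Protocol 2) 0 of 9 genes were called, beside 0.368% of genes tested, with 0 at an unadjusted p below 0.05 and 0 by DESeq2. The widest intervals of that difference were those of Klf9 (-0.96 to 0.28) and Klf4 (-0.33 to 0.80), and that of Klf6 was -0.32 to 0.26.

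Among the neonatal cultures the responses differed for some members. For Protocol 1B minus Protocol 1A, 2 of 9 were higher and 2 lower, beside 3.7% and 3.21% of genes tested: Klf4 (1.48 ± 0.33, adjusted p = 0.00590) and Klf6 (0.50 ± 0.14, 0.0265) were higher, and Klf3 (-0.45 ± 0.11, 0.00937) and Klf11 (-1.02 ± 0.29, 0.0257) lower. Klf6 did not pass without 1A Control replicate 2 or 3, 1A HMGB1 replicate 1, 1B Control replicate 2 or 3, or 1B HMGB1 replicate 2 or 3 (0.38 to 0.50, 0.0503 to 0.128). Klf11 did not pass without 1A Control replicate 3, 1A HMGB1 replicate 3, 1B Control replicate 1 or 1B HMGB1 replicate 2 (-0.78 to -0.98, 0.0530 to 0.122). The number called was then 2 without 1A Control replicate 3 or 1B HMGB1 replicate 2.

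For Protocol 1C minus Protocol 1A, 2 of 9 were higher and 2 lower, beside 5.46% and 8.53% of genes tested. Klf4 (2.27 ± 0.29, adjusted p = 8.70e-06) and Klf6 (0.93 ± 0.14, 3.15e-05) were higher, and Klf10 (-0.96 ± 0.19, 6.37e-04) and Klf7 (-0.42 ± 0.13, 0.0286) lower. The call of Klf7 was lost without 1A Control replicate 1, 1A HMGB1 replicate 2, 1C Control replicate 2 or 1C HMGB1 replicate 3 (-0.34 to -0.40, 0.0696 to 0.104), and with DESeq2 (-0.34, 0.0657), its size factors (-0.34, 0.0848) or no filter (-0.40, 0.112). Klf13 (0.25, adjusted p = 0.0730) passed with DESeq2 (0.33, 0.00341), with its size factors (0.33, 0.0171) and without 1A HMGB1 replicate 1 (0.32, 0.0393), and Klf3 (-0.25, 0.139) without 1C HMGB1 replicate 1 (-0.33, 0.0487). Klf4 thus had the widest difference in response among the neonatal cultures, and it was also the member whose Control level was furthest apart between them. Both values use the same Control libraries and are not independent.

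**Figure D4:**
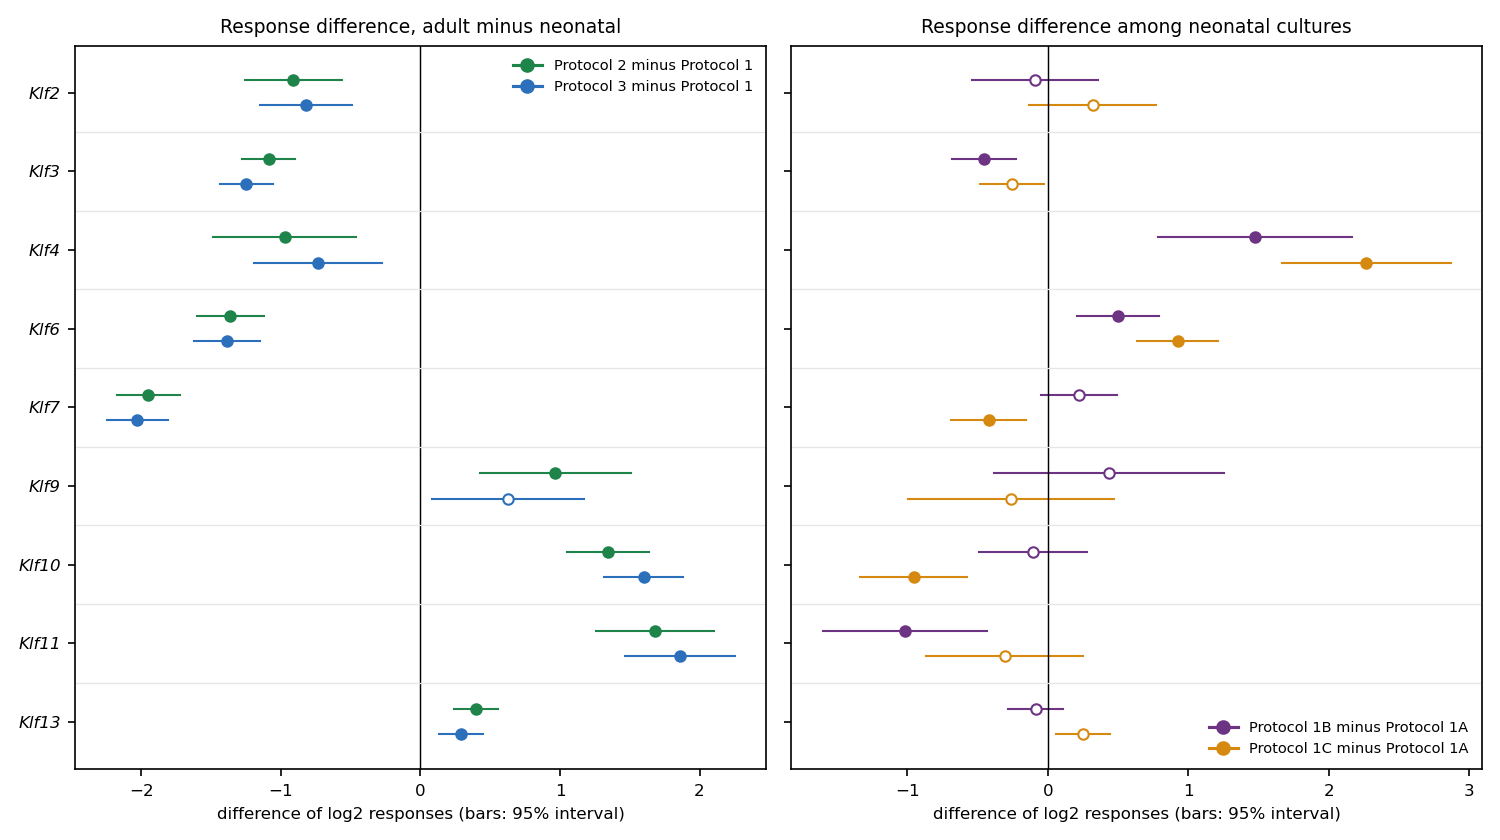
Difference of the log2 response to HMGB1 between protocols for the 9 Kruppel-like factors, with 95% intervals (filled symbols passed the test, open symbols did not). In the left panel the genes that rose in Protocol 1 lie left of 0, down to -2.03 for Klf7, and those that fell lie right of it, up to 1.86 for Klf11, and in the right panel Klf4 lies furthest from 0, at 2.27 for Protocol 1C minus Protocol 1A.

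Other genes of the KLF and SP family were measured too. Klf17 was at 0 in every library, and Klf1, Klf14, Sp5, Sp6 and Sp7 were below the filter on low counts. Protocol 1A had 1 that rose and 3 that fell among 7 tested, 1B had 2 and 5 among 10, and 1C had 2 and 3 among 7. Of all genes tested, 29.7% rose and 31.6% fell in 1A, 29.8% and 32% in 1B, and 28.4% and 31.8% in 1C. Klf16, a Sin3-binding relative of Klf9 and Klf13, fell in each (-0.52, -0.93 and -1.35), averaging 13.2, 10.7 and 8.57 CPM in HMGB1 cultures of 1A, 1B and 1C against 18.6, 20.5 and 22.0 CPM in their Controls. Klf8, a CtBP-binding relative of Klf3, rose in 1B, with 26 to 60 counts in HMGB1 libraries against 4 to 5 in Control (3.62 ± 0.43, adjusted p = 2.99e-05), and, named after its values were seen, in 1C (1.25 ± 0.41, 0.0205). In untreated cells 8 of 10 were lower both in Protocol 1 and in Protocol 2 than in Protocol 3, beside 42.9% and 37.2% of genes tested. They included Klf16 (20.3 and 13.5 CPM against 93.9 CPM, which is 35.1 CPM per kb in Protocol 3 Control), Sp2 (-2.13 and -2.60) and Sp4 (-2.44 and -2.30).

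The wider class of C2H2 zinc finger genes leaned the other way from the rising members. Of 399 tested in Protocol 1A, 53 rose and 192 fell (median log2 fold change -0.47), of 408 in 1B 59 rose and 219 fell (-0.57), and of 409 in 1C 61 rose and 232 fell (-0.65), beside the medians and shares over all genes given above. In Protocol 2, 6 of 438 passed and rose, beside 1.21% of all genes tested. In Protocol 1 Control relative to Protocol 3 Control 204 were higher and 169 lower of 447, beside 37.3% and 42.9% of all genes tested.

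The partners and regulators of KLF proteins were read from fixed lists. Of 13 corepressor and coactivator genes, 5 rose and 2 fell in Protocol 1A, 7 rose and 4 fell in 1B, and 6 rose and 3 fell in 1C. These counts stand beside 29.7% and 31.6% of all genes in 1A, 29.8% and 32% in 1B, and 28.4% and 31.8% in 1C. Sap30, a subunit of the Sin3 complex that Klf9, Klf10, Klf11 and Klf13 recruit, averaged 191, 208 and 213 CPM in HMGB1 cultures of 1A, 1B and 1C against 35.4, 29.6 and 33.5 CPM in their Controls (2.41, 2.82 and 2.68). The acetyltransferase gene Kat2b also rose in each (1.30, 1.42 and 1.78). Of 10 regulators upstream of Klf2 and Klf4, 2 rose and 8 fell in 1A, 2 rose and 8 fell in 1B, and 1 rose and 6 fell in 1C. The MEF2 factor genes Mef2d (-1.56 in 1A and -2.35 in 1C) and Mef2c (-1.21 in 1A and -1.09 in 1B), the ubiquitin ligase gene Wwp1 (-1.39 in 1A) and the forkhead factor gene Foxo3 (-1.85 in 1B and -2.24 in 1C) were among those that fell. Klf2 rose in the same cultures. In untreated cells 7 of the 10 were lower and 2 were higher in Protocol 1 than in Protocol 3, beside 42.9% and 37.3% of genes tested. Mef2a (118 against 684 CPM) and Mef2d (116 against 515 CPM) were among them.

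Genes that KLF2 controls in T cells and endothelium did not share a direction. For each list below, the shares of all genes that rose and fell were 28.4% to 29.8% and 31.6% to 32%. In Protocol 1A 2 rose and 3 fell of 7 tested, with the cell cycle inhibitor gene Cdkn1a up (1.90) and Thbd, the gene of thrombomodulin, and S1pr1, a sphingosine phosphate receptor gene, down (-3.67 and -2.64), and in 1B 1 rose and 3 fell of 4 and in 1C 2 rose and 3 fell of 6. Of 9 genes of alternative macrophage activation, which Klf4 promotes, 5 of 6 tested fell in 1A, 2 of 6 in 1B and 1 of 6 in 1C, including Pparg in 1A (-2.33). Of the immediate early genes 5 rose and 2 fell of 11 tested in 1A, 8 rose and 2 fell in 1B and 6 rose and 2 fell in 1C, with Ier3 (3.58), Zfp36 (2.27) and Junb (1.68) up in 1A. Of 12 TGF-beta early response genes 8 rose and 1 fell in 1A, 5 rose and 3 fell in 1B and 7 rose and 3 fell in 1C, with Skil (2.38) and Pmepa1 (2.09) up and Ski (-1.49) down in 1A, where Klf10 and Klf11 fell. Of the 10 genes of the glucocorticoid list, made of induced genes and the receptor gene Nr3c1, 3 rose and 2 fell of 9 tested in 1A. There Nr3c1 rose (1.79) and Tsc22d3, encoding GILZ, fell (-2.90) along with Klf9.

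The genes most like each member were taken by Pearson's r of log2 CPM over the 10 group means, among 9505 protein-coding genes that averaged at least 10 CPM in a group. Klf6 was followed most closely by Gmeb2 (0.996), Med13l (0.996) and Lcor (0.995), Klf10 by Sema4b (0.998), Tex10 (0.991) and Dennd4a (0.990), and Klf11 by Jup (0.995), Phf3 (0.992) and Ivns1abp (0.991). Klf2 was followed by Pdlim7 (0.986), Ccr7 (0.974) and Zbtb32 (0.974), and Klf4 by Ciita (0.967), Rassf1 (0.965) and Cd74 (0.962). Klf3 was followed by Yme1l1 (0.990), Daam1 (0.987) and Ppig (0.986), and Klf7 by Tent4a (0.987), Marcksl1 (0.987) and Gch1 (0.985). The likeness was weaker for Klf9, with Vasn (0.964), and for Klf13, with Dap3 (0.960). The 10 points share libraries, so that r is given with no p.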

How the data were processed

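Messenger RNA of 30 microglial libraries was sequenced. Raw counts of 54532 genes were deposited in a table of the whole series, which the authors made by alignment with HISAT2 2.0.5 and gene counting with featureCounts 1.5.0-p3. The strand setting and genome build were not given in the sources used here, and without strand, reads of overlapping antisense genes cannot be told apart. Groups came from the sample labels. Counts were filtered (filterByExpr), scaled by TMM and tested with edgeR 4.0.16 (R 4.3.3, limma 3.58.1, statmod 1.5.0) by the quasi-likelihood F test with a robust fit, and p-values were adjusted by Benjamini-Hochberg over all genes tested, with a threshold of 0.05. Responses were fitted within the 6 libraries of a protocol, untreated cells over 15 Control libraries, and response differences as interactions over 30 libraries. SE is the absolute log2 fold change over the square root of F, and intervals use the t quantile at the fit's degrees of freedom. The scripts were tested on simulated data.

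Levels between genes were divided by gene length. The 9 genes and all lists were chosen with earlier results of these data known. From each list the text takes its names among the 3 genes with the lowest adjusted p that were called and the 2 most abundant that were not, and of all genes the 3 most alike each member by Pearson's r over group means (prior count of 2). Alternatives were DESeq2 1.42.0 (Wald test), its size factors, no filter, a replicate block, other sets of libraries in the fit, Protocol 1A alone in place of the mean of Protocol 1, an absolute log2 fold change of at least 1, and leaving out each library. Replicate numbers were taken to pair samples where same-numbered libraries deviated together with a correlation over 0.1 in every pair. This held in Protocols 1B (0.176 to 0.409), 2 (0.280 to 0.429) and 3 (0.191 to 0.283) and not in 1A (0.0294 to 0.107) or 1C (0.0917 to 0.145), and comes from the data and not from the labels. External data used in the study were not analysed here.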

Additional observations from a re-analysis of the deposited data

Results flagged for a closer look

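The response to HMGB1 differed between protocols in 25 cases among the 9 genes, by edgeR's interaction test over all 30 libraries with Benjamini-Hochberg adjustment. Each value is a difference of log2 responses.

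For Protocol 2 minus Protocol 1, the difference was -0.91 for Klf2 (adjusted p = 5.68e-05), -1.09 for Klf3 (1.69e-11), -0.97 for Klf4 (0.00216), -1.36 for Klf6 (2.17e-11) and -1.95 for Klf7 (1.30e-15), and 0.97 for Klf9 (0.00322), 1.34 for Klf10 (4.89e-09), 1.68 for Klf11 (3.66e-08) and 0.40 for Klf13 (6.56e-05).

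For Protocol 3 minus Protocol 1, it was -0.82 for Klf2 (1.11e-04), -1.25 for Klf3 (7.14e-13), -0.74 for Klf4 (0.00902), -1.39 for Klf6 (1.18e-11) and -2.03 for Klf7 (2.40e-16), and 1.60 for Klf10 (8.53e-11), 1.86 for Klf11 (1.35e-09) and 0.29 for Klf13 (0.00277). The values of Klf4 in these comparisons turned to 0.28 and 0.51 with Protocol 1A alone.

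For Protocol 1B minus Protocol 1A, it was -0.45 for Klf3 (0.00937), 1.48 for Klf4 (0.00590), 0.50 for Klf6 (0.0265) and -1.02 for Klf11 (0.0257), and for Protocol 1C minus Protocol 1A 2.27 for Klf4 (8.70e-06), 0.93 for Klf6 (3.15e-05), -0.42 for Klf7 (0.0286) and -0.96 for Klf10 (6.37e-04). The calls of Klf6 and Klf11 in 1B minus 1A and of Klf7 in 1C minus 1A did not hold when some single libraries were left out (0.38 to 0.50, -0.78 to -0.98 and -0.34 to -0.40).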

How the results depend on the processing

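Most values kept their direction and their side of the threshold. Over all members and named list genes with each alternative, 956 response values did so, while 19 lost the call, 2 gained it and 7 changed sign. For untreated cells the numbers were 1070, 37, 5 and 6, and for response differences 941, 30, 14 and 14. With an absolute log2 fold change of at least 1 required as well, the members called were 5, 5 and 7 for the response in Protocols 1A, 1B and 1C, beside 24.2%, 26.6% and 31.5% of genes tested. In untreated cells they were 7 and 6 for Protocols 1 and 2 over Protocol 3 (56.6% and 56.5%), 2 for Protocol 1 over Protocol 2 (22.4%), 1 for 1B over 1A (13.1%) and 2 for 1C over 1A (8.11%). For response differences they were 5 and 5 for Protocols 2 and 3 minus Protocol 1 (20.8% and 21.1%), 2 for 1B minus 1A (2.69%) and 1 for 1C minus 1A (3.42%), and the 3 comparisons with no member called kept none. The lower numbers follow from the stricter rule.

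With the replicate number as a block, 1 member was called in Protocol 2 (Klf3, adjusted p = 0.0199) and 1 in Protocol 3 (Klf10, 0.00154), beside 7.94% and 2.17% of genes tested with the block, protocols where same-numbered libraries deviated together, and Klf9 for Protocol 3 minus Protocol 1 (0.0179). Protocols 1A and 1C did not meet the rule of a correlation over 0.1 in every pair, 1C only through replicate 2 (0.0917). Every same-numbered pair there except Protocol 1A replicate 1 still correlated best with its own number, so that pairing in them is not settled. There the block added Klf3 (adjusted p = 0.0477) and Klf13 (0.0354) to 1C minus 1A. It changed no other call of a member.

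Klf4 changed sign with Protocol 1A alone in place of Protocol 1, to 1.09 over Protocol 2 in untreated cells, and to 0.28 and 0.51 for Protocols 2 and 3 minus Protocol 1. This follows from the spread among 1A, 1B and 1C. The other changes of sign were in values near 0 that passed no test, and their cause was not tested. They were Klf9 in Protocol 2 in the fit of all 30 libraries (0.0030) and Klf6 for Protocol 3 minus Protocol 2 with DESeq2 (0.018) and with its size factors (0.018).

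Leaving out single libraries, the number of members called moved furthest for 1C over 1A (between 3 and 5) and 1B minus 1A (between 2 and 4). It moved less for the responses in Protocols 1A and 1B, for Protocol 3 minus Protocol 1 and for 1C minus 1A. In untreated cells it also moved less for Protocol 2 over Protocol 3, Protocol 1 over Protocol 2 and 1B over 1A. Signs changed within these ranges of log2 values. Responses: Klf9 in Protocol 2 (-0.090 to 0.085), and in Protocol 3 Klf3 (-0.0098 to 0.12), Klf4 (-0.012 to 0.066) and Klf11 (-0.048 to 0.32). Untreated cells: Klf7 for Protocol 1 over Protocol 2 (-0.056 to 0.0014), Klf3 for 1B over 1A (-0.076 to 0.026), and for 1C over 1A Klf3 (-0.0061 to 0.12), Klf6 (-0.10 to 0.0021) and Klf11 (-0.015 to 0.10). Response differences: for Protocol 3 minus Protocol 2 Klf6 (-0.098 to 0.040) and Klf7 (-0.16 to 0.037), and for 1B minus 1A Klf2 (-0.18 to 0.063) and Klf10 (-0.23 to 0.023).

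Counts were lowest for Klf9 and Klf11, with as few as 16 and 19 in a library. For 3 libraries against 3 an exact permutation test of a single gene cannot go below 0.1.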
